A study of Mus musculus with 4 samples.

Results

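The alpha and beta globin loci of the mouse were examined for binding of CTCF and of the cohesin subunit RAD21 in E12.5 whole limbs. The member genes are Hbb-bt, Hbb-bs, Hbb-bh1 and Hbb-y on chromosome 7 and Hba-x, Hba-a1 and Hba-a2 on chromosome 11. Every peak lying between 100 kb before the first and 100 kb after the last member gene of each locus was taken, on the mm10 (GRCm38) assembly. The beta window spans chr7:103712524-103953216 (240693 bp) and the alpha window chr11:32176400-32397298 (220899 bp). They hold 37 of the 89856 peaks of the 5 mm10 lists, and 15 of the 28789 CTCF sites obtained by merging the CTCF peaks of both replicates, 3 in the beta and 12 in the alpha window.

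The embryos used for CTCF and RAD21 ChIPmentation were TgN(38-40)/Wt; del(CS38-40)-/- on a B6CBAF1 background, with 2 biological replicates per antibody. TgN(38-40) is a single mouse line that carries a HoxD boundary region, CS38-40, inserted in chromosome 10, and the native copies of this region on chromosome 2 are deleted. A RAD21 ChIP-seq peak list of wild-type E12.5 whole limbs, made by the same group in an earlier study, had no replicate, and no wild-type CTCF list was analysed here. Neither globin locus was altered by design, so the question addressed is where these proteins were found around genes unrelated to the transgene. Limbs at this stage are a mixture of cells, and the share of blood cells among them was not measured by these libraries.

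Globin genes encode the protein chains of haemoglobin and are transcribed at very high levels in red blood cell precursors. Hbb-y, Hbb-bh1 and Hba-x are the embryonic genes of the clusters, whereas Hbb-bs, Hbb-bt, Hba-a1 and Hba-a2 are the adult ones. CTCF is a zinc-finger protein that binds an asymmetric DNA motif, and cohesin, a ring-shaped complex that extrudes chromatin loops, is halted more readily when it meets the motif in one orientation, so that pairs of motifs pointing towards each other often anchor loops. Both globin clusters are known in red blood cell precursors to lie between CTCF sites, with strong distal enhancers upstream of the genes.

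The DNA under the CTCF peaks is printed here because the orientation of the motif and the duplication of sites 6 and 7 of the alpha window matter for what follows. Sites are numbered within each window by increasing coordinate. The motif is a 19-base model (consensus NNNCCACNAGGGGGCGCNN) learned from CTCF peaks on other chromosomes, and a site counts as holding it when a match is centred within 50 bp of a CTCF summit. Each sequence is GRCm38, read 5′ to 3′ on the strand of the motif, with the motif in capitals and 20 bases on either side. The beta sites are given first, and alpha site 8, which holds the motif on the minus strand, is not printed.
Beta site 1 (chr7:103807050-103807108, minus strand): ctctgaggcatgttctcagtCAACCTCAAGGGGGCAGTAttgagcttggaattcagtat
Beta site 2 (chr7:103913156-103913214, minus strand): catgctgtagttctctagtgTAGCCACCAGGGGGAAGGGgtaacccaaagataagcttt
Beta site 3 (chr7:103942919-103942977, minus strand): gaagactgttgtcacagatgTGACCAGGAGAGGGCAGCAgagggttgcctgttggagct
In the alpha window, sites 1 and 3 hold the motifs found on the plus strand.
Alpha site 1 (chr11:32182675-32182733, plus strand): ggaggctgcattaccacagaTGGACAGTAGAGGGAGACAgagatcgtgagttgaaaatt
Alpha site 3 (chr11:32217009-32217067, plus strand): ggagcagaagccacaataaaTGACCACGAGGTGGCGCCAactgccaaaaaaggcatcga
Sites 5 and 9 had a RAD21 peak, while site 10, one of the strongest CTCF sites of the window, had none.
Alpha site 5 (chr11:32238633-32238691, minus strand): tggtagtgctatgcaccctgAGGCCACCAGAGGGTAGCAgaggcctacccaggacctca
Alpha site 9 (chr11:32324818-32324876, minus strand): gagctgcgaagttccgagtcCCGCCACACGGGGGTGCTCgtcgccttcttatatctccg
Alpha site 10 (chr11:32341270-32341328, minus strand): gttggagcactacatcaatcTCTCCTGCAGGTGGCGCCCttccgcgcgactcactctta
Sites 6 and 7 are the copies that follow Hba-a1 and Hba-a2.
Alpha site 6 (chr11:32286910-32286968, minus strand): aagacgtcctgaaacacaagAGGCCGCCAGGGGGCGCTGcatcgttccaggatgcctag
Alpha site 7 (chr11:32300015-32300073, minus strand): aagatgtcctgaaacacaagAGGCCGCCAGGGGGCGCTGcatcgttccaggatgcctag

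No CTCF or RAD21 peak was called over the beta globin genes, and few sites flanked them. No peak of any list fell in the 106126 bp between the summits of beta sites 1 and 2, a span that holds Hbb-bt, Hbb-bs, the globin-like gene Hbb-bh2, Hbb-bh1, the pseudogene Hbb-bh0 and Hbb-y. Beta site 1 lay 5442 bp from Hbb-bt, beyond its 3′ end, in intergenic DNA. On the other side, upstream of the embryonic gene Hbb-y, site 2 lay at 59992 bp and site 3 at 89723 bp, both between genes for olfactory receptors. These receptor genes, which encode odorant receptors, account for 13 of the 18 protein-coding genes of the window. The density of CTCF sites was 12.46 per Mb in the beta window and 10.6 per Mb over the genome. Of 10223 autosomal tiles of the same length, 42.2% held 3 or more sites.

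**Figure D1:**
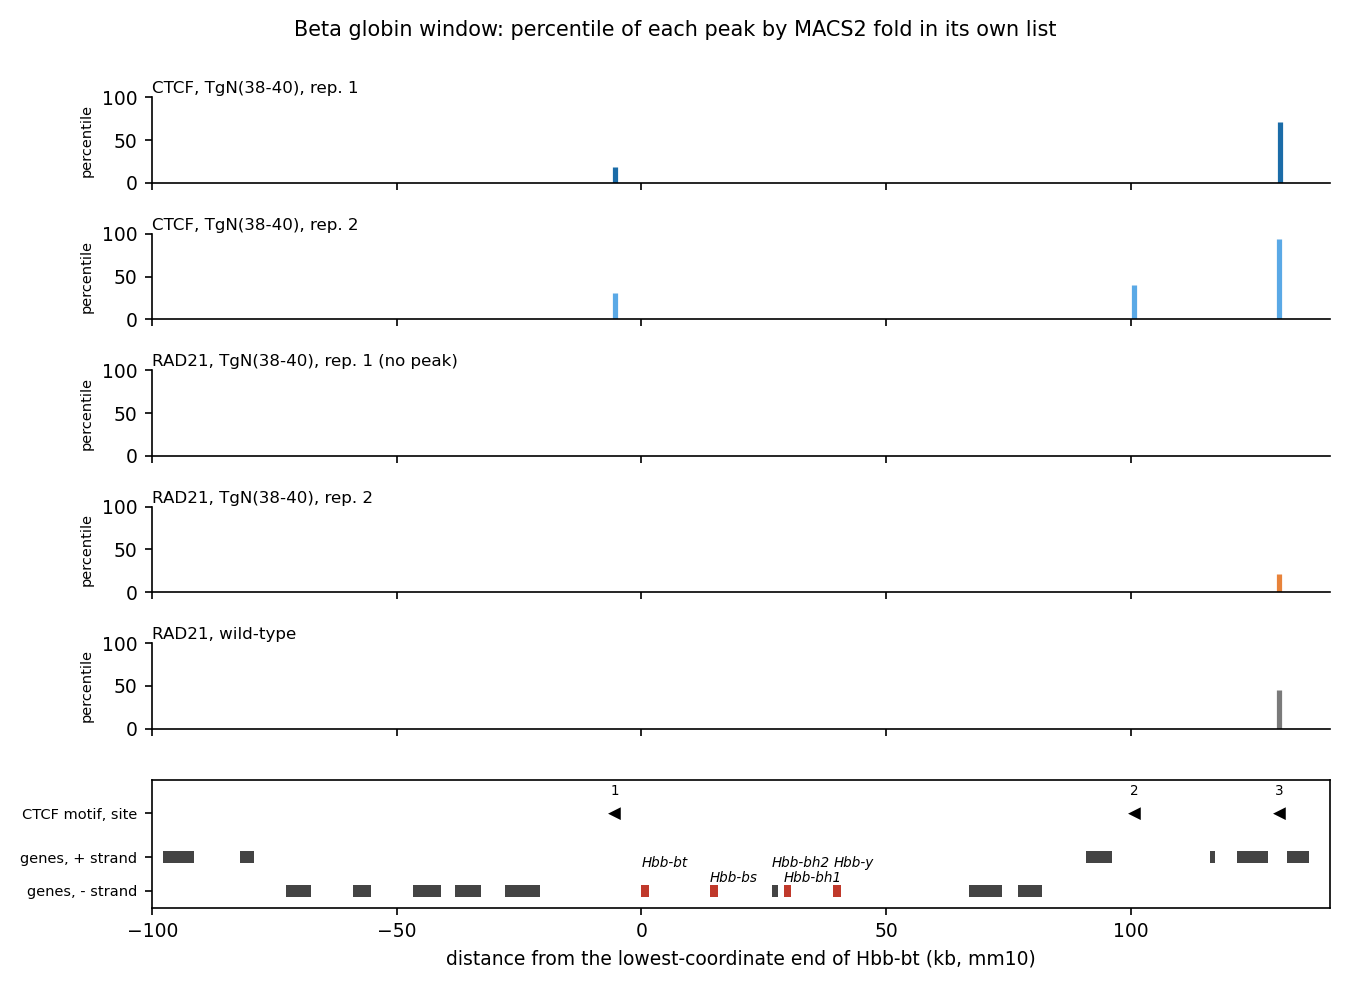
Peaks of the beta globin window. The x axis is the distance in kb from the 3′ end of Hbb-bt, the upper 5 panels give the percentile of each peak by fold within its own list (0 to 100), and the lowest panel shows member genes in red, other protein-coding genes in dark grey (those for olfactory receptors unlabelled) and the strand of the CTCF motif as arrowheads. No list has a peak over the globin genes, and beta site 3, at the right, is the only site with RAD21.

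The strength of a peak is given by its MACS2 fold, the height of the summit divided by the height expected locally, and by its percentile, the share of peaks of the same list whose fold is as high or lower. Folds of different lists are not on one scale. Beta site 1 had a CTCF fold of 5.09 (percentile 19.1) in replicate 1 and 6.26 (percentile 30.8) in replicate 2. Beta site 2 was called in replicate 2 only, with a fold of 6.89 (percentile 40.0). Beta site 3, located 1498 bp before the start of the olfactory receptor gene Olfr633, had folds of 7.69 (percentile 71.4) and 12.8 (percentile 93.8), and was the highest of the 3 in both replicates. The site nearest to the globin genes was therefore a weak one in both replicates, and the strongest site was the most distant.

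RAD21 was found at beta site 3 alone. There the TgN(38-40) replicate 2 had a RAD21 fold of 5.62 (percentile 21.9) and the wild-type list a fold of 4.24 (percentile 45.2), while TgN(38-40) replicate 1 had no peak. Replicate 1 of RAD21 is a short list of 4102 peaks, where replicate 2 has 14787 and the wild-type list 20874, and it contained 26.3% of the peaks of the replicate 2 list. Its lack of a peak says little about a single site. All 3 beta motifs were on the minus strand, the strand on which the beta globin genes are transcribed. Site 1 thus pointed away from the genes and sites 2 and 3 towards them, and no motif of the window pointed right. Over the genome 23091 sites held the motif, 49.9% of them on the minus strand.

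The alpha window was dense in CTCF sites. It held 12 sites, or 54.3 per Mb against 10.6 per Mb over the genome, and 127 of 11140 autosomal tiles of the same length (1.14%) held as many or more. The median tile held 2. Several neighbours of the globin genes hold or adjoin these sites. Il9r, the receptor for interleukin 9, starts 17547 bp from site 1. Snrnp25, a protein of the minor spliceosome, starts 247 bp from site 2. Rhbdf1, an inactive rhomboid protease, contains site 3 in an exon, outside its annotated coding and untranslated sequence. Nprl3, a regulator of amino acid signalling whose introns are known to house the main alpha globin enhancers, contains sites 4 and 5. Sh3pxd2b, a scaffold protein of podosomes, contains site 12 in an intron and starts 4786 bp from site 11. Mpg, a DNA repair glycosylase on the opposite strand within Nprl3, held no peak.

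**Figure D2:**
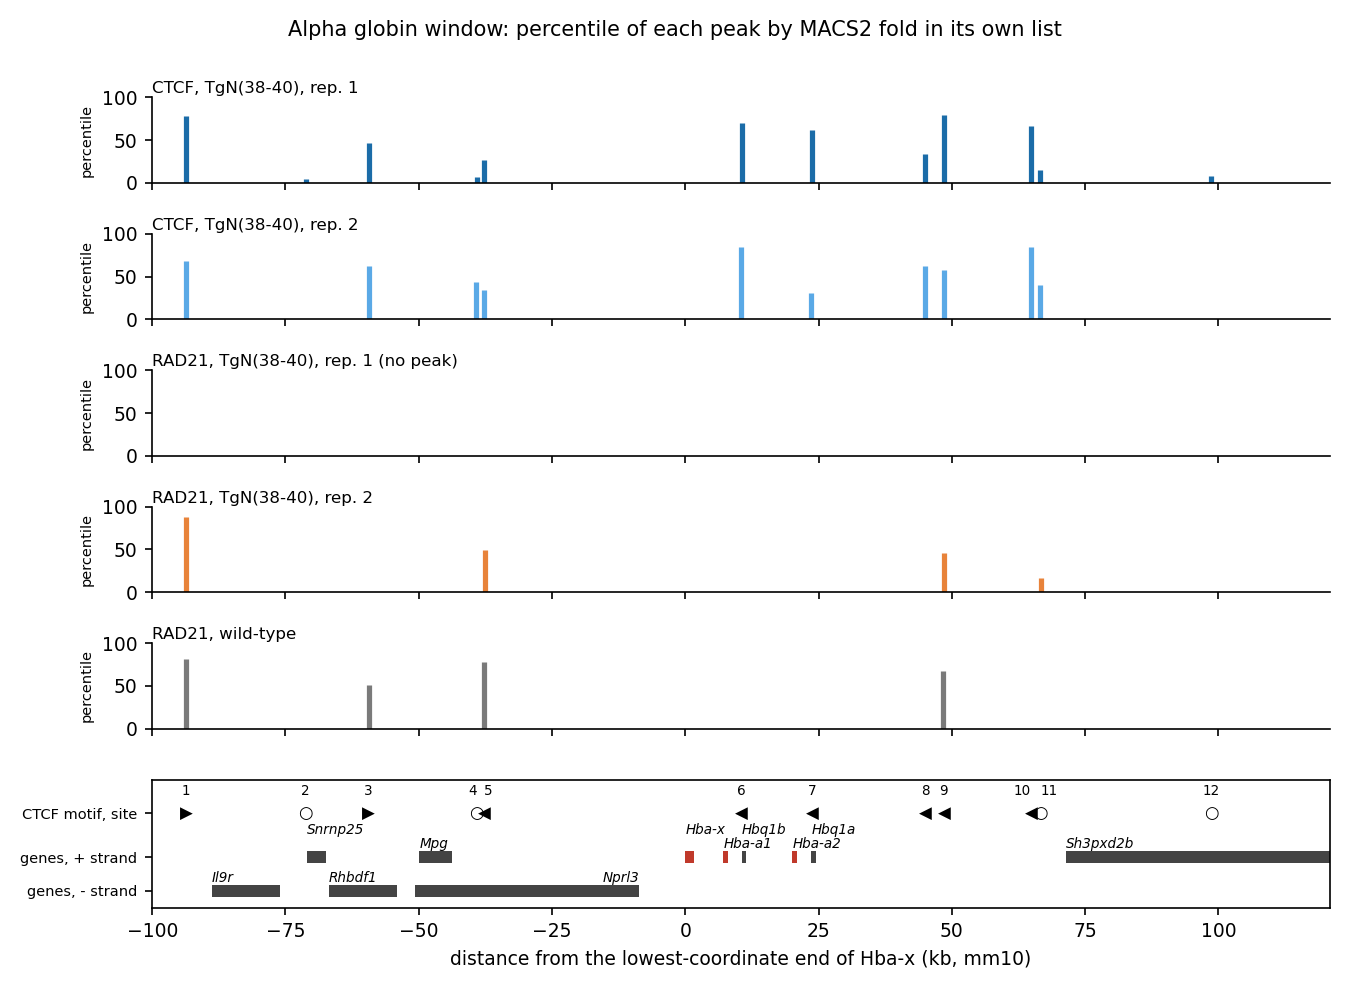
Peaks of the alpha globin window. The x axis is the distance in kb from the start of Hba-x, the upper 5 panels give the percentile of each peak by fold within its own list (0 to 100), and the lowest panel shows member genes in red, other protein-coding genes in dark grey, and the motif at each site as an arrowhead (pointing right for plus, left for minus) or an open circle where none was found. Sites 1 and 3 point right and the other 6 with a motif point left, and none of sites 6, 7, 8 and 10 has a RAD21 peak.

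The alpha globin genes themselves, Hba-x, Hba-a1 and Hba-a2, contained no peak. Between sites 5 and 6 there was a gap of 48275 bp, which holds Hba-x, Hba-a1 and part of Nprl3. Site 6 was the only site among the member genes, 2480 bp beyond Hba-a1. Site 7 lay 2892 bp beyond Hba-a2. Further from Hba-a2, sites 8, 9, 10 and 11 followed at 24101, 27623, 44014 and 45736 bp. Sites came in close pairs in 2 cases, sites 4 and 5 being 1436 bp and sites 10 and 11 being 1722 bp apart. Thus 4 of 12 alpha sites and none of 3 beta sites had another within 2 kb, against 11.2% of sites over the genome.

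CTCF was called in both replicates at 10 of 12 alpha sites and at 2 of 3 beta sites, against 73.0% of all merged sites. Alpha site 1 had folds of 8.16 (percentile 78.4) and 9.21 (percentile 68.7). Alpha site 3 had folds of 6.34 (percentile 46.5) and 8.61 (percentile 62.1). It lies mostly in repeat-derived DNA, with 69.3% of the bases around its summit masked, whereas 12.54% of all sites had at least 50% masked. Inside Nprl3, site 4 had folds of 4.50 (percentile 7.54) and 7.24 (percentile 44.1), and site 5 had folds of 5.47 (percentile 26.5) and 6.53 (percentile 34.04). Both Nprl3 sites were thus below the median of their lists in each replicate.

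Beside the adult genes, alpha site 6 had CTCF folds of 7.63 (percentile 70.4) and 10.9 (percentile 84.1), and site 7 had folds of 7.13 (percentile 61.7) and 6.30 (percentile 30.9). Downstream, site 8 had folds of 5.79 (percentile 34.1) and 8.62 (percentile 62.2), and site 9 had folds of 8.24 (percentile 79.3) and 8.23 (percentile 57.8). Site 10 had folds of 7.43 (percentile 67.0) and 11.1 (percentile 85.1). Sites 6 and 10 were therefore the strongest of the window in replicate 2, whereas sites 9 and 1 led in replicate 1. The remaining sites were weak. Site 11 had folds of 4.93 (percentile 14.8) and 6.94 (percentile 40.6), and sites 2 and 12 were called in replicate 1 only, with folds of 4.32 (percentile 4.94) and 4.52 (percentile 7.83).

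The order of the sites was only partly shared by the replicates, since site 7 was at percentile 61.7 in replicate 1 and 30.9 in replicate 2, and site 4 at 7.54 and 44.1. The median CTCF percentile was 50.1 ± 13.9 (SD, n = 2) over the alpha sites, with 40.3 in replicate 1 and 59.9 in replicate 2, and 42.6 ± 3.73 (SD, n = 2) over the beta sites, with 45.3 and 40.0. By construction the median of a whole list is about 50. The replicates did not cover the same sites. The alpha medians were over 12 peaks in replicate 1 and 10 in replicate 2, as sites 2 and 12 (percentiles 4.94 and 7.83) were called in replicate 1 only. The beta medians were over 2 and 3 peaks, as site 2 (percentile 40.0) was called in replicate 2 only. These medians and their SDs thus depend on which weak sites were called. They cannot show a difference between the windows or from 50.

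**Figure D3:**
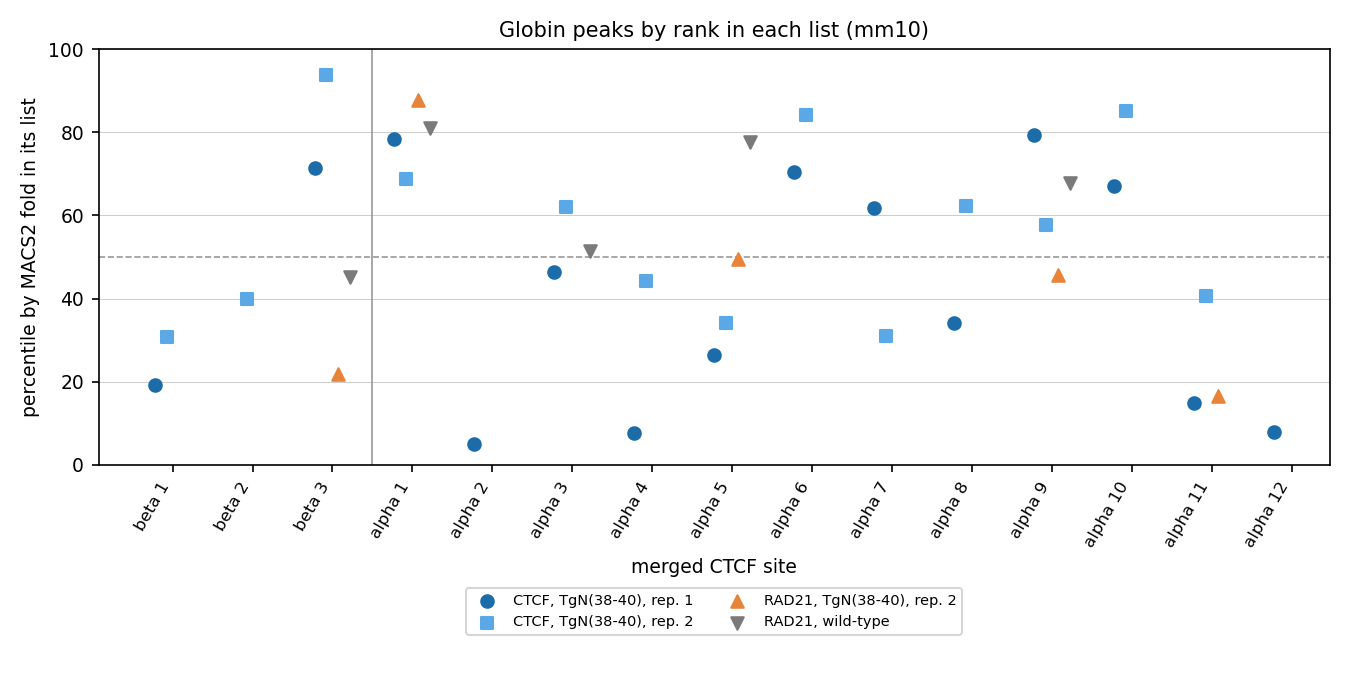
Percentile of each peak by MACS2 fold within its own list (y axis, 0 to 100) at the 15 merged CTCF sites (x axis, beta sites left of the vertical line). Points are the CTCF replicates of TgN(38-40) limbs (blue circles and squares), RAD21 replicate 2 of TgN(38-40) limbs (orange triangles) and RAD21 of wild-type limbs (grey triangles), with a missing point where no peak was called. Alpha site 1 is high in all 4 lists, whereas alpha sites 6 and 10 reach percentiles 84.1 and 85.1 for CTCF in replicate 2 without a RAD21 point.

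RAD21 marked a minority of the globin sites. A RAD21 peak of any list overlapped 5 of 12 alpha sites and 1 of 3 beta sites, against 60.8% of all merged CTCF sites. By list, this was 5 of the 15 sites for TgN(38-40) replicate 2 (46.7% of all sites), 5 of 15 for the wild-type list (58.7%) and 0 of 15 for TgN(38-40) replicate 1 (13.5%). With 15 sites, these counts cannot be read as a departure from the shares over the genome. Alpha site 1, the outermost on the Il9r side, was the strongest RAD21 site of either window, with a fold of 10.8 (percentile 87.8, rank 1802) in TgN(38-40) replicate 2 and 7.32 (percentile 81.1) in wild-type limbs. Alpha site 5, in Nprl3, had RAD21 folds of 7.28 (percentile 49.6) and 6.94 (percentile 77.7) in the same lists. Alpha site 9 had RAD21 folds of 7.00 (percentile 45.6) and 5.98 (percentile 67.9). Hence RAD21 was called in limbs of either genotype at 3 alpha sites, one on the Il9r side, one inside Nprl3 and one downstream of Hba-a2.

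The remaining RAD21 peaks were called in 1 list each. Alpha site 11 had a fold of 5.38 (percentile 16.5) in TgN(38-40) replicate 2 only, and alpha site 3, in Rhbdf1, had a fold of 4.67 (percentile 51.5) in the wild-type list only. Including beta site 3, 4 of 15 sites had RAD21 in both these lists, against 44.7% of all sites, and the same limit applies to this count. Because the wild-type list has no replicate and was made by another protocol, a site called in only one of these lists cannot be read as a difference between TgN(38-40) and wild-type limbs.

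The lack of RAD21 at alpha sites 6 and 10 stood beside strong CTCF peaks. Both were between percentiles 80 and 90 of CTCF replicate 2, where 85.3% of the 2633 peaks of the genome overlapped a RAD21 peak of some list. In CTCF replicate 1 they were lower, at percentiles 70.4 and 67.0. Site 6 also lies in partly duplicated sequence, where 65.5% of 50-base stretches around the motif are unique. A missing RAD21 peak therefore shows less at site 6 than at site 10. Conversely, alpha site 5 had RAD21 at a CTCF percentile of 34.04, and 53.2% of the peaks between percentiles 30 and 40 did. No RAD21 peak of either window lay off a CTCF peak, against 4.44%, 8.89% and 19.1% of the RAD21 peaks of replicate 1, replicate 2 and the wild-type list over the genome. With so few peaks in the windows, a count of 0 is no departure from these shares.

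The motif was found at 3 of 3 beta sites and 8 of 12 alpha sites, against 80.2% of all merged sites. In the alpha window, 2 motifs were on the plus strand and 6 on the minus strand. The plus-strand motifs, at sites 1 and 3, had the lowest coordinates of the 8, and those of the 8 from site 5 onwards were all on the minus strand. Thus the motifs at sites 1 and 3 pointed towards the alpha globin genes, and so did those at sites 7, 8, 9 and 10 from the opposite side. The motif of site 6, between the adult genes, pointed towards Hba-a1 and away from Hba-a2. The motif of site 5, on the Nprl3 side, pointed away from the globin genes. In the beta window no motif pointed right. Sites 1 and 3 lie more than 50 kb from the member genes, and with flanks of 50 kb the alpha window too held motifs on the minus strand only (0 plus, 6 minus). Peak lists of the same libraries mapped to a custom genome that carries the transgene gave 3 plus and 6 minus.

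Sites 2, 4, 11 and 12 had no motif within 50 bp of a summit. Searching within 100 bp brought in matches at site 2 (plus strand, 55 bp from the summit), site 11 (plus strand, 75 bp) and site 12 (minus strand, 65 bp), which makes 4 plus-strand and 7 minus-strand motifs. With these, site 11 on the Sh3pxd2b side pointed away from the globin genes, so the separation by strand described above holds for matches close to a summit. Site 4, in Nprl3, had none within 100 bp either.

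Wild-type RAD21 summits lay on the same side of the motif at every globin site where both were present. Offsets are counted from the motif centre along the motif strand, 5′ to 3′ as printed above. The wild-type summits lay 16 bp past the centre at beta site 3, and 32, 24, 12 and 23 bp past it at alpha sites 1, 3, 5 and 9. Over 14570 sites of the genome the median offset was 20 bp, and 87.4% of summits lay past the centre. In TgN(38-40) replicate 2 the offsets were more scattered, with summits 42 bp past the centre at beta site 3, 51 bp past it at alpha site 1, and on the other side, at -94 and -41 bp, at alpha sites 5 and 9. In that list 64.1% of 11808 summits lay past the centre, with a median of 14 bp.

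Inside the motif, a CpG, the dinucleotide at which mammalian DNA is methylated, was present in 6 of 8 alpha motifs (sites 3, 6, 7, 8, 9 and 10) and in none of the 3 beta motifs. Of all motifs, 46.5% contained one. The motifs of sites 6 and 7 are the same sequence and are not separate instances. With so few motifs, these counts cannot be read as a departure from that share. Methylation was not measured in these libraries.

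Alpha sites 6 and 7 are copies of one another, each following one of the duplicated adult genes. Their 19 motif bases are identical, and the motifs lie 13105 bp apart, close to the 12978 bp between the starts of Hba-a1 and Hba-a2. The 59 printed bases are identical at 58 positions, the difference from site 6 to site 7 being C5T, counted from 1 at the 5′ end of the printed sequence. Each motif lies just before the start of a theta globin gene, a little-expressed relative of the alpha genes, on the opposite strand to it. There are 16 bases between the motif of site 6 and the start of Hbq1b, and 15 bases between that of site 7 and the start of Hbq1a. Both motifs therefore sit next to the start of a theta gene rather than in an adult alpha gene.

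Such copies matter for short reads. The reads were 50 bases long, and of the 252 stretches of 50 bases around each motif, 87 (34.5%) are shared by sites 6 and 7. The adult genes are less unique still, since 5.52% of 50-base stretches in Hba-a1 and 6.57% in Hba-a2 occur once in the genome. In the beta locus, the figures are 28.6% for Hbb-bt and 32.8% for Hbb-bs. In contrast, 97.5% of the stretches in Hba-x and 100% of those in Hbb-bh1, Hbb-bh2 and Hbb-y are unique, as are 72.9% in Hbq1b and 72.4% in Hbq1a. The lack of a peak therefore rests on mostly unique sequence at the embryonic genes, and on little of it at the 4 adult genes.

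**Figure D4:**
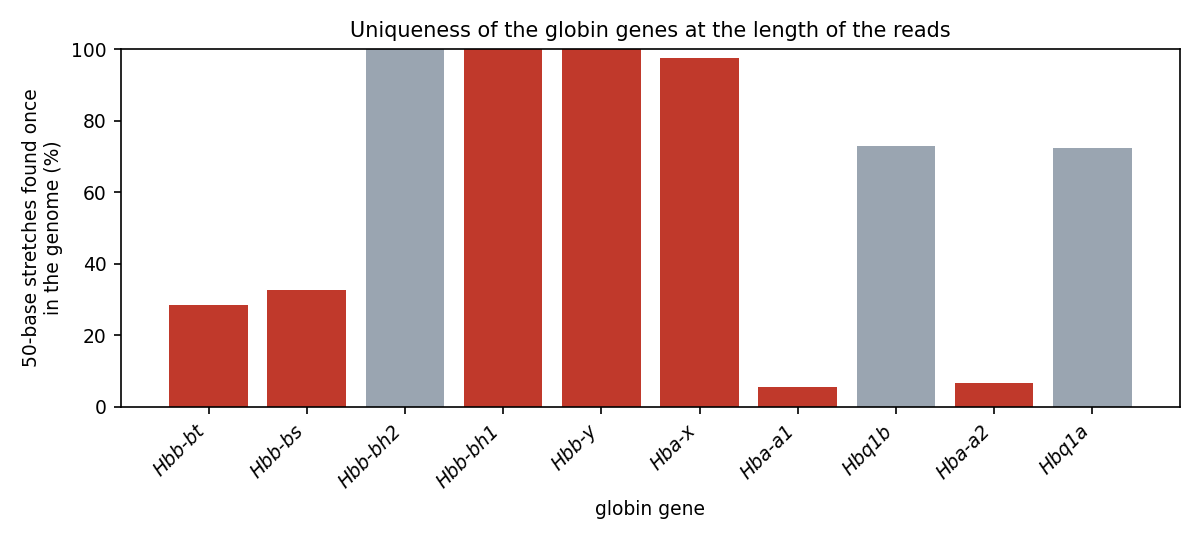
Share of 50-base stretches that occur once in the genome, in percent (y axis, from 0), for each globin gene in chromosomal order (x axis, beta genes first). Member genes are red and other globin genes grey. Hba-a1 (5.52%) and Hba-a2 (6.57%) are the least unique, and Hbb-bs and Hbb-bt also stay under 35%.

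The same TgN(38-40) libraries were also mapped by the authors to a custom genome carrying the transgene, in which chromosomes 7 and 11 keep their mm10 sequence and all reads were kept, with reads matching several places attributed at random. The rank of alpha sites 6 and 7 depended on the list used. For site 7 in CTCF replicate 2, the fold was 11.9 (percentile 90.4) on the custom genome and 6.30 (percentile 30.9) on mm10, a gain of 59.5 percentile points, and 15 of 22567 peaks present in both lists (0.0665%) gained as much. In replicate 1, site 7 had a fold of 8.27 (percentile 80.6) on the custom genome and 7.13 (percentile 61.7) on mm10, a gain of 18.9 points that 1.45% of 20255 peaks reached.

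Alpha site 6 gained mainly in replicate 1. There its fold was 9.95 (percentile 94.2) on the custom genome and 7.63 (percentile 70.4) on mm10, a gain of 23.8 points that 196 of 20255 peaks (0.968%) reached. In replicate 2 its fold was 12.1 (percentile 91.2) on the custom genome and 10.9 (percentile 84.1) on mm10, a gain of 7.00 points that 8.02% of 22567 peaks reached and that was close to the 6.21 points gained by alpha site 5. Gains of 10 points or more were seen for 4.46% of CTCF peaks in replicate 1 and 3.87% in replicate 2. At every other globin site the CTCF percentile moved by between -8.78 and 6.21 points. With all reads kept, sites 6 and 7 differed little in replicate 2, at percentiles 91.2 and 90.4, and were among the 4 strongest CTCF sites of the windows in both replicates. They share 34.5% of the 50-base stretches around each motif, and reads from these were attributed at random. The closeness of sites 6 and 7 can therefore come from the mapping and cannot be read as equal binding.

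**Figure D5:**
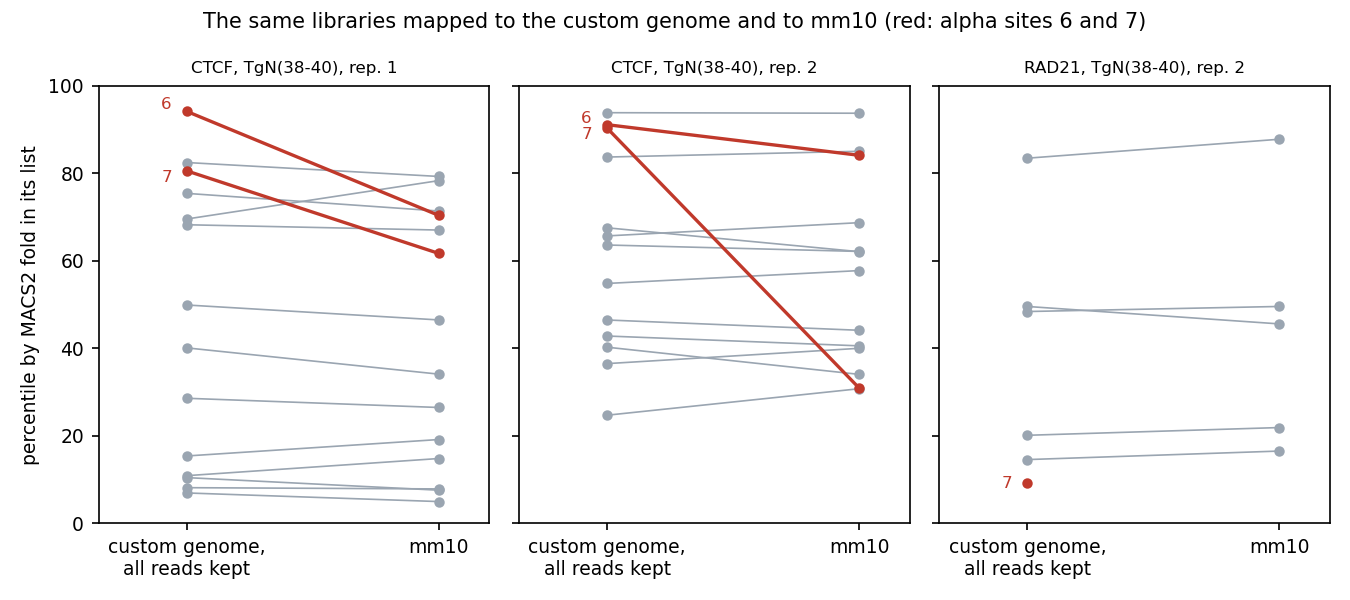
Percentile of each globin peak by MACS2 fold within its list (y axis, 0 to 100) for the same library mapped to the custom genome with all reads kept (left) and to mm10 (right), in CTCF replicates 1 and 2 and RAD21 replicate 2 of TgN(38-40) limbs. Alpha sites 6 and 7 are red and other sites grey, and lines join the same site. Site 7 is at 90.4 on the custom genome and at 30.9 on mm10 in CTCF replicate 2, and a RAD21 peak (percentile 9.13) is called there on the custom genome only.

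A RAD21 peak was also called at site 7 on the custom genome. TgN(38-40) replicate 2 had a RAD21 peak there with a fold of 5.09 (percentile 9.13, -log10 q 4.03), and none on mm10, which brought the alpha sites with RAD21 to 6. No CTCF or RAD21 peak appeared over Hba-a1, Hba-a2, Hbb-bs or Hbb-bt in the custom lists. The other 5 peaks of this library kept their percentiles within -4.33 and 3.99 points, and gains of 10 points or more were seen for 2.34% of its peaks over the genome and for 10.2% of those of RAD21 replicate 1, which had no peak in the windows. The wild-type list was given on mm10 only.

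Other genes of the red blood cell programme were examined for comparison, using a list of 29 annotated genes for transcription factors, haem synthesis and membrane proteins of red cells. CTCF of either replicate lay within 5 kb of the start of 9 of 29 (31.0%), against 25.7% of 21938 protein-coding genes. Replicate 1 gave 9 (22.0% of protein-coding genes) and replicate 2 gave 8 (23.7%). Klf1, the factor that activates adult beta globin, had the strongest CTCF peak of the list, with folds of 9.14 (percentile 88.7) and 14.8 (percentile 98.3). Gfi1b, a repressor needed for red cell formation, had folds of 8.06 (percentile 77.0) and 10.2 (percentile 78.3), and Myb, a factor of early progenitors, had folds of 6.02 (percentile 39.1) and 9.53 (percentile 72.2). The others included Epb42, Lyl1, Ppox, Urod and Bcl11a, of which Bcl11a, a silencer of embryonic globin genes, was called in replicate 1 only.

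RAD21 of any list lay near 12 of the 29 genes (41.4%), against 19.7% of protein-coding genes. The counts were 7 for TgN(38-40) replicate 2 (11.7% of protein-coding genes), 11 for wild-type limbs (18.5%) and 1 for TgN(38-40) replicate 1 (2.67%). With 29 genes, no test was made of these shares. No RAD21 peak lay within 5 kb of the start of any of the 7 member globin genes on mm10.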

How the data were processed

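The authors removed adapters (cutadapt 1.16 in the notes of the submitters), aligned the reads (Bowtie2 2.3.4.1 is listed there) either against mm10 or against a custom TgN(38-40) assembly, and ran MACS2 (2.1.1.20160309) library by library. Each deposited peak has a fold (the ratio of pileup to local expectation) and -log10 p and -log10 q scores, all as the authors' caller wrote them. The largest q-value of an mm10 list was 0.0498. The control given to MACS2 and the sequencing depth are not given in the sources used here, so the counting error of a fold is unknown, and a missing peak is a site under the threshold. Input libraries were not used here.

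Group and antibody came from the labels. Peaks overlapping by at least 1 bp were merged or matched. Genes came from GENCODE M21 and bases from GRCm38. The motif model was learned from 2000 CTCF replicate 2 peaks outside chromosomes 2, 7, 10, 11, X and Y, leaving out the first 100 by q-value, and its threshold (6.26) is the score reached by 5% of flanking sequences. Motif learning, the matching of overlapping peaks and their merging were tested on simulated data, and the motif threshold was not. Uniqueness means an exact match to 1 place on the assembled chromosomes. With 2 replicates and an unreplicated wild-type list, no test between groups was made. The genes named are the members, genes holding or next to a peak, and, of the red cell list, the 3 strongest for CTCF in replicate 2 and those with RAD21 in both replicates, a result that is not reported here. Members and lists were chosen with earlier results of these data known. Python 3.11.15, numpy 2.4.6, pandas 2.3.3 and pysam 0.24.0 were used. Window flanks, q-value limits, replicates, overlap, ranking, motif threshold and distances were varied.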

Additional observations from a re-analysis of the deposited data

How the results depend on the processing

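Of 90 alternative values, 75 stayed within the limits set for calling them unchanged. These limits were wide. Alpha CTCF sites numbering 8 (flanks of 50 kb) or 18 (flanks of 200 kb) counted as unchanged from 12. A median percentile counted as unchanged within the SD of the 2 replicates, which was 13.9 points for the alpha sites. With flanks of 50 kb, the beta window kept 1 CTCF site, which held the motif, and 0 sites with RAD21, and 3 alpha sites had RAD21. With flanks of 200 kb the alpha window held 13 sites with the motif and 1 RAD21 peak off CTCF. Requiring a -log10 q of at least 10 left 1 beta CTCF site, with the motif, and the median percentile became 82.6 for beta (site 3 alone) and 66.2 for alpha sites. At a -log10 q of at least 5 the beta median was 55.7. Under these limits percentiles were still taken within the full lists, so dropping weak peaks raises a median by itself. These medians therefore cannot be set against the 50 of a whole list. The beta median was 36.5 when peaks were ranked by -log10 p. Leaving out either CTCF replicate gave 0 to 3 beta and 4 to 7 alpha sites with the motif, the lower counts being those without replicate 2, whose summits alone lie within 50 bp of several motifs. Within 20 kb of a start, 18 of the 29 genes of the red cell list (62.1%) had CTCF, against 54.8% of 21938 protein-coding genes. No paired analysis was possible because the replicate numbers of CTCF and RAD21 libraries are not stated to mark shared material, and no test between groups was made. Unknown depth limits what a missing peak can show, most of all in RAD21 replicate 1.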

Other observations

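Beyond the alpha window, the next CTCF site on the Il9r side lay 13804 bp outside its edge, with CTCF folds of 11.9 and 13.8 and RAD21 folds of 8.63 in TgN(38-40) replicate 2 and 5.64 in wild-type limbs. On the Sh3pxd2b side the next site lay 52890 bp outside, with CTCF folds of 8.44 and 10.3. The beta window had no site for 792552 bp outside its left edge, where the next site had CTCF folds of 9.66 and 7.90, nor for 246546 bp outside its right edge, where CTCF folds were 7.32 and 9.33. All of these neighbours carried RAD21 in TgN(38-40) replicate 2 and in wild-type limbs.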
